A study of Mus musculus with 4 samples.

Results

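The genes of the matrix metalloproteinases (MMPs), of the ADAMTS proteases and of the tissue inhibitors of metalloproteinases (TIMPs) were examined in 4 mammary gland tumours of mice. Members were chosen by name alone, as genes called Mmp or Adamts with a number and at most 1 letter, or Timp1 to Timp4. This gave 46 of the 28440 genes counted, with 23 MMP, 19 ADAMTS and 4 TIMP genes. All 4 tumours, numbered 1 to 4, carry the genotype MMTV-R26Met, in which Cre under the MMTV promoter of mammary epithelium turns on a conditional copy of the receptor gene Met inserted at Rosa26. The series title describes the model as triple-negative breast cancer. Strain, age and the mouse of origin of each tumour are not in the labels, which name no normal or untreated tissue. The only comparison is therefore between single tumours. The p-values measure a gene's spread between these 4 samples beyond that of genes of like expression. A gene that did not pass can still differ several-fold between tumours.

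Libraries of poly-A RNA held 35220504 to 42809015 counts, and every pair of libraries differed by more than sampling noise (chi-square per degree of freedom 132 to 387). All 5 epithelial markers were present in every tumour, with Krt8, Krt18, Epcam and Cdh1 at 1071 ± 200, 959 ± 189, 619 ± 152 and 393 ± 173 CPM (counts scaled to library size, as counts per 1e6, SD, n = 4). The fifth, Krt19, differed between tumours, with 11.6, 147, 40.8 and 370 CPM in tumours 1 to 4 (edgeR adjusted p = 1.96e-08). Tumour 3 also carried skeletal muscle RNA. The summed level of 5 muscle genes was 1666 CPM in tumour 3, against 2.87 to 6.63 CPM elsewhere, where Myh1 had 0 counts in tumours 2 and 4. The part of this muscle RNA in values of tumour 3 was not tested. Calls of members in the spread test are given with and without tumour 3. Most other values that include tumour 3 are given only with that tumour. In bulk tissue, fewer cells of a type and less RNA per cell cannot be told apart.

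MMPs and ADAMTS proteases are zinc-dependent enzymes that cut proteins of the extracellular matrix. MMPs are made as inactive precursors and cleave collagens, gelatin, elastin and many cell surface proteins, while ADAMTS proteases are secreted and include enzymes for the proteoglycans aggrecan and versican, for the ends of procollagen and for von Willebrand factor. TIMPs bind the active site of MMPs, and Timp3 also inhibits several ADAMTS enzymes. In mammary tumours much of the MMP output is known to come from stromal and inflammatory cells rather than from the tumour epithelium.

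Of the 46 members, 35 were abundant enough in all 4 libraries to be tested, comprising 15 MMP, 17 ADAMTS and 3 TIMP genes. Per kilobase of exon, which makes levels of different genes comparable, Timp1 was the highest member in every tumour, at a mean level of 39.3 ± 23.3 CPM per kb (SD, n = 4). Next came Adamts1 (22.9 ± 33.6), Mmp2 (22 ± 9.75), Mmp14 (21.8 ± 4.38), Mmp15 (17.1 ± 7.58), Adamts4 (16 ± 13.2), Timp2 (15.9 ± 7.42) and Timp3 (12.5 ± 2.15), each a mean level in CPM per kb with SD over 4 tumours. Each step in this order was smaller than the larger SD of the pair. The place of Adamts1 rests on tumour 3, since its level was 4.77, 4.80, 73.3 and 8.63 CPM per kb in tumours 1 to 4, and its mean level in CPM was 32.2 without tumour 3 and 121 with it. All other members had a mean level below 7 CPM per kb, and the median of the 35 tested members was 2.95 CPM per kb, against 5.70 CPM per kb over the 13959 tested genes with a length. The 11 members outside the test had between 0 and 189 counts over the 4 libraries together. Mmp20, which encodes the tooth enamel protease enamelysin, had 0 counts in every library, which allows at most 0.0706 to 0.0865 CPM.

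**Figure D1:**
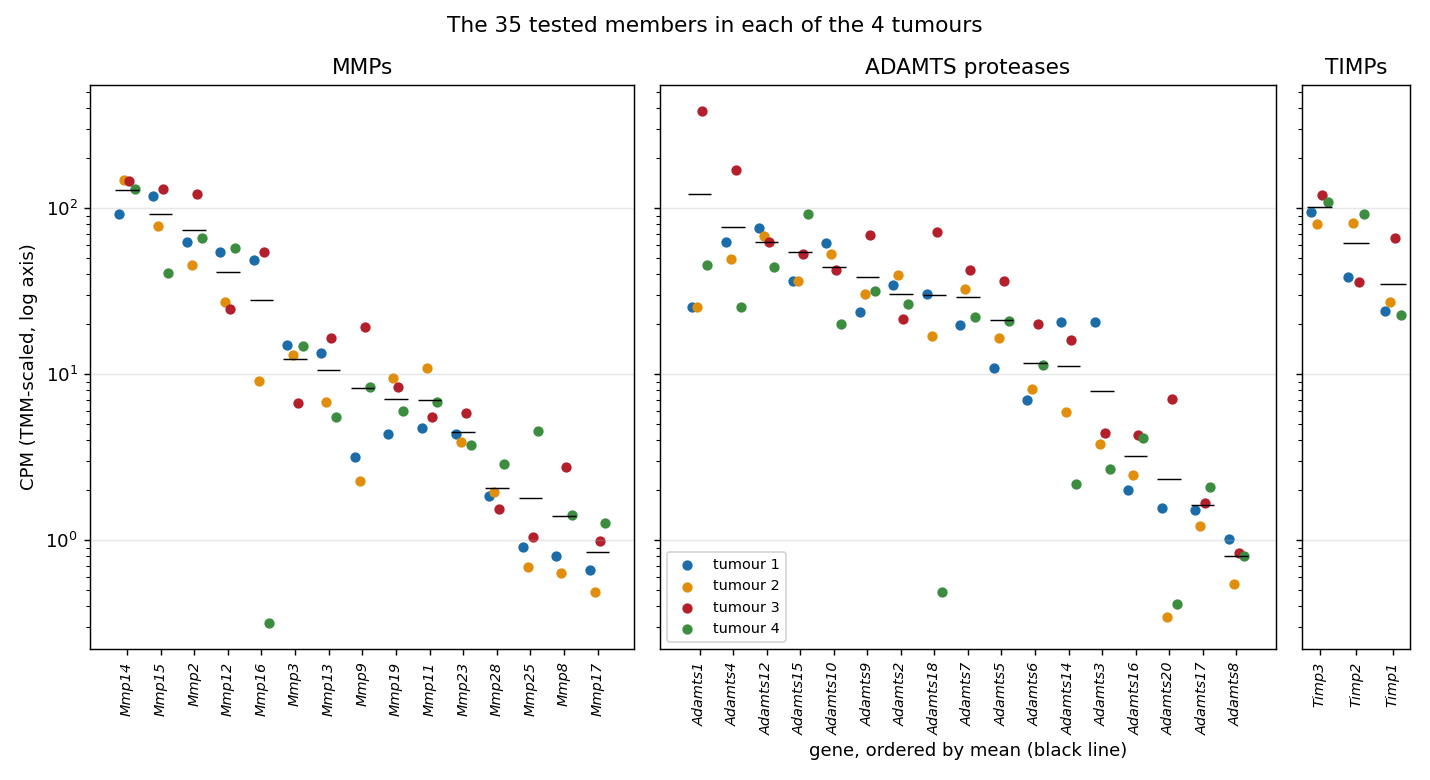
CPM (log axis) of each of the 35 tested members in tumours 1 to 4, as points, with the mean over tumours as a black line, for MMPs, ADAMTS proteases and TIMPs. Most members lie within a few-fold across tumours, while Mmp16 and Adamts18 drop below 1 CPM in tumour 4 and Adamts1 reaches 388 CPM in tumour 3.

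With edgeR, 5 of the 35 tested members (14.3%) spread between tumours beyond genes of like expression at an adjusted p under 0.05, against 3.63% of all 15808 genes tested. They were Mmp16, Adamts1, Adamts18, Adamts20 and Adamts4, all 5 of them highest in tumour 3, as were 29.7% of all genes tested. This share was not counted among all genes past the test. For Mmp16 tumour 1 was close, with 48.6 CPM against 54.5 CPM in tumour 3. By family, 4 of 17 ADAMTS, 1 of 15 MMP and 0 of 3 TIMP genes passed, and whether the families differ in this was not tested. The highest tumour exceeded the lowest by a median of 2.67-fold over tested members and 1.73-fold over all genes tested. Without tumour 3 the count was 2 of 35 members, against 2.58% of all genes, and these were Mmp16 and Adamts18.

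**Figure D2:**
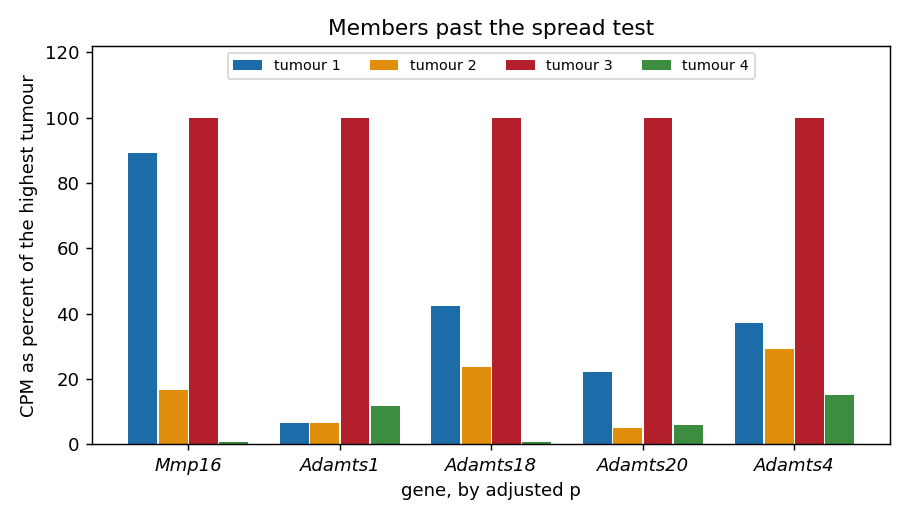
CPM of the 5 members past the spread test in tumours 1 to 4, as a percentage of the gene's highest tumour. Tumour 3 is the highest for all 5 genes, tumour 1 reaches 89.2% of it for Mmp16, and tumour 4 stands at 0.58% for Mmp16 and 0.68% for Adamts18.

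Among membrane-type MMPs, which are anchored at the cell surface, Mmp16 varied most and Mmp14 least. Mmp16 (chr4:17852893-18119145, GRCm38), which encodes MT3-MMP, had 48.6, 9.06, 54.5 and 0.317 CPM in tumours 1 to 4, that is 2067, 314, 2091 and 13 counts. Tumours 1 and 3 were high and close together, tumour 2 was intermediate and tumour 4 was nearly devoid of it. The 172-fold range was the largest among tested members (edgeR adjusted p = 2.55e-10), and the call held without any single tumour, with an edgeR adjusted p of 0.0375 without tumour 4. Mmp14, which encodes MT1-MMP, the collagenase that also activates pro-Mmp2, had 92.2, 148, 147 and 131 CPM in tumours 1 to 4, a mean level of 130 ± 26.1 CPM (SD, n = 4). Its 1.61-fold range did not pass (edgeR adjusted p = 1). Mmp15, which encodes MT2-MMP, had 119, 78.3, 131 and 40.8 CPM in tumours 1 to 4 and took the same order of tumours as Mmp16, but its 3.20-fold range did not pass either (edgeR adjusted p = 0.783). Mmp17 and Mmp25, which are tethered by a lipid anchor, were scarce. Mmp25, known from neutrophils, had 0.917, 0.692, 1.04 and 4.58 CPM in tumours 1 to 4 and did not pass (edgeR adjusted p = 0.267). Mmp24 had 4 to 12 counts a library.

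The gelatinases, which cut denatured collagen and basement membrane collagen, were both highest in tumour 3. Mmp2 had 62.7, 45.5, 121 and 66.5 CPM in tumours 1 to 4, so tumour 3 stood above the others, which lay within a narrow band. Mmp9, an enzyme of neutrophils and macrophages, had 3.17, 2.28, 19.4 and 8.38 CPM in tumours 1 to 4, with tumour 3 more than 2-fold above tumour 4. Neither passed, with edgeR adjusted p = 1 and 0.203. Mmp8, the neutrophil collagenase, took the same order of tumours, with 0.800, 0.635, 2.76 and 1.41 CPM in tumours 1 to 4 (edgeR adjusted p = 1). The summed level of 8 neutrophil markers was 17.9, 29.9, 101 and 58.3 CPM in tumours 1 to 4, with Elane and Camp at 0 counts in some libraries, and the part of neutrophils in these levels was not tested.

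The other secreted MMPs lie mostly in 1 gene array, and its members did not all take the same order of tumours. On chromosome 9, 10 MMP genes sit within 427 kb (chr9:7272514-7699585, GRCm38), in the order Mmp13, Mmp12, Mmp1b, Mmp3, Mmp1a, Mmp10, Mmp8, Mmp27, Mmp20 and Mmp7. Mmp12, the macrophage elastase, was the most abundant, with 54.6, 27.3, 24.7 and 57.9 CPM in tumours 1 to 4. Tumours 1 and 4 thus lay above tumours 2 and 3, while the summed level of 10 macrophage markers was 522, 784, 575 and 645 CPM in the same tumours and so highest in tumour 2. Mmp13, a collagenase, had 13.5, 6.84, 16.6 and 5.50 CPM in tumours 1 to 4. Mmp3, or stromelysin, had 15, 13.1, 6.67 and 14.9 CPM in tumours 1 to 4. Like Mmp12, it was higher in tumours 1 and 4 and lowest in tumour 3, where Mmp13 was highest. None of the 3 passed (edgeR adjusted p = 1 for each).

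The remaining genes of the array were scarce. Mmp10, a second stromelysin, had 114, 26, 33 and 8 counts in tumours 1 to 4, and Mmp7, the epithelial matrilysin, had 7, 64, 44 and 74 counts, so tumour 1 was the highest library for Mmp10 and the lowest for Mmp7. Neither was tested, because 1 library fell under the count minimum; with that minimum required in 1 library only, edgeR gave adjusted p = 0.910 for Mmp10 and 1 for Mmp7. The interstitial collagenase genes Mmp1a and Mmp1b had at most 1 count in any library, and Mmp27 had 4 to 13 counts.

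**Figure D3:**
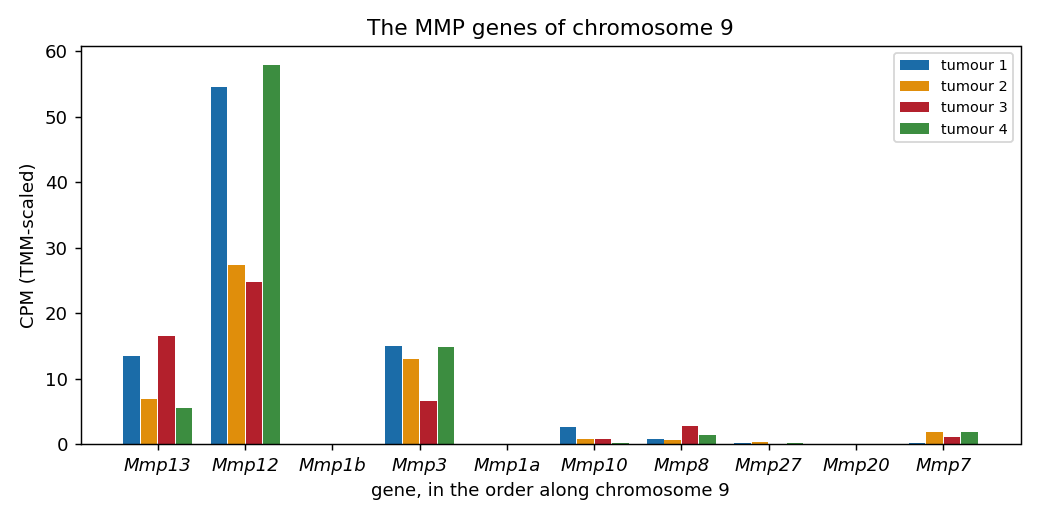
CPM of the 10 MMP genes of the chromosome 9 array in tumours 1 to 4, in their order along the chromosome. Mmp12, Mmp3 and Mmp13 carry nearly all of the signal, with Mmp12 high in tumours 1 and 4 and Mmp13 high in tumours 1 and 3.

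The promoters of this array differ in sequence from those of the other members that had a promoter window. They are shown because 8 of its 10 genes share an element that none of those other windows has. RefSeq windows (GRCm38.p6, 250 bases before to 50 after the start) were at hand for 32 members, a few of them with more than 1 start. The 14 members without a window, all outside the array, include Mmp2, Mmp9, Mmp16 and Adamts4, and their promoters were not examined. The AP-1 motif was searched in the loose form TGANTCA, with any base in the middle, which reads the same on both strands. It was found in windows of 8 of the 10 array genes. It was in 0 of the other 22 members with a window, and in 8.97% of 27025 genes with a window. The match in Mmp20 reads TGAATCA, and those in the other 7 genes read TGAGTCA or TGACTCA. The share of all genes with only G or C in the middle was not counted. The letters TATAAA, searched on both strands, were in windows of 9 of the 10 array genes, in 2 of the other 22 members, and in 15.7% of all genes with a window. The GC box letters GGGCGG, on both strands, were in 0 of the 10 array genes, in 18 of the other 22 members, and in 38.2% of all genes with a window. A window was between 37.7 and 52.0% G and C in the array and between 53.3 and 80.0% in the other members. Each line below gives 100 bases before and 10 after the annotated start, 5′ to 3′ on the gene's strand, with the AP-1 and TATA letters in capitals.
Mmp13, chr9:7272414-7272523, plus strand: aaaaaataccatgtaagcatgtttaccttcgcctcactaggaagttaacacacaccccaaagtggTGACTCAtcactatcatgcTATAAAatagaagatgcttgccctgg
Mmp12, chr9:7347274-7347383, plus strand: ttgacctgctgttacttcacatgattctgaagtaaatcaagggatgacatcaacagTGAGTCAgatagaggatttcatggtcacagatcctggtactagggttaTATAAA
Mmp1b, chr9:7388017-7388126, minus strand: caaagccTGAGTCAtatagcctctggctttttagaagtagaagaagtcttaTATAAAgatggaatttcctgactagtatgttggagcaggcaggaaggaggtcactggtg
Mmp3, chr9:7445722-7445831, plus strand: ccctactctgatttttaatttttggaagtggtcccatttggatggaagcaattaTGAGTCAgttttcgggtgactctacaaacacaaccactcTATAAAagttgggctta
Mmp1a, chr9:7464041-7464150, plus strand: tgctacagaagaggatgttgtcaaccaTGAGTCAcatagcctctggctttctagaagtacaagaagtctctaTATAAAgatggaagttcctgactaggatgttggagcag
Mmp10, chr9:7502242-7502351, plus strand: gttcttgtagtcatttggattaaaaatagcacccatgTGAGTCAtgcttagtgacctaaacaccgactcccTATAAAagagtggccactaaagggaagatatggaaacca
Mmp20, chr9:7628131-7628240, plus strand: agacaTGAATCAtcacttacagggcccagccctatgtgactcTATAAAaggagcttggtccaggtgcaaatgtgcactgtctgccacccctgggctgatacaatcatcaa
Mmp7, chr9:7691990-7692099, plus strand: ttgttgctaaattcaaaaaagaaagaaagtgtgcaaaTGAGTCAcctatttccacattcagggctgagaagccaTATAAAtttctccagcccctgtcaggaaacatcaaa
In these stretches the AP-1 letters begin 35 to 95 bases before the annotated start and 19 to 48 bases before the TATA letters. In Mmp12 the TATA letters lie after the start, and in the other 7 genes before it. Mmp12 and Mmp7 each have another RefSeq start, whose window holds neither the AP-1 nor the TATA letters and is not shown. A motif match is a description of letters and not evidence of a bound factor.

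Outside the array, Mmp11, or stromelysin 3, known from fibroblasts around carcinomas, had 4.77, 10.8, 5.50 and 6.84 CPM in tumours 1 to 4. Mmp19 had 4.40, 9.49, 8.37 and 6.02 CPM, and Mmp23 had 4.37, 3.92, 5.81 and 3.75 CPM in tumours 1 to 4. All 3 were low and even, with ranges of 2.27, 2.16 and 1.55-fold and edgeR adjusted p = 1 each. Mmp28, or epilysin, stood at 1.54 to 2.90 CPM, and Mmp21 had at most 2 counts in a library.

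The ADAMTS proteases that cleave proteoglycans were the class with the most calls, 3 of 7 tested against 3.63% of all genes, and 5 of the 7 were highest in tumour 3, as were 29.7% of all genes. Without tumour 3, 0 of the 7 passed. Adamts1 (chr16:85793827-85803113, GRCm38), which cleaves versican and aggrecan, had 25.3, 25.4, 388 and 45.7 CPM in tumours 1 to 4. Tumour 3 was 8.49-fold above the next tumour, and the other 3 lay between 25.3 and 45.7 CPM (edgeR adjusted p = 4.06e-09, and 1 without tumour 3). Adamts4, an aggrecanase, had 62.7, 49.6, 169 and 25.6 CPM in tumours 1 to 4, again high in tumour 3 and lowest in tumour 4 (edgeR adjusted p = 0.0238). Leaving out tumour 2, 3 or 4 ended the call (edgeR adjusted p = 0.0768, 1 and 0.161). Adamts20, a large protease known in mice from a coat colour mutant, had 1.58, 0.346, 7.09 and 0.414 CPM in tumours 1 to 4. It was scarce outside tumour 3, with 12 and 17 counts in tumours 2 and 4 (edgeR adjusted p = 0.00298), and leaving out tumour 2 or tumour 3 ended the call (edgeR adjusted p = 0.0932 and 0.472).

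The other 4 proteases of this class did not pass (edgeR adjusted p = 1 each). Adamts5, the second aggrecanase and the neighbour of Adamts1 at a distance of 53.1 kb, had 11, 16.4, 36.6 and 20.9 CPM in tumours 1 to 4. It took the same order of tumours as Adamts1, over a 3.33-fold range against 15.4-fold for Adamts1. Adamts9, with 23.6, 30.3, 68.7 and 31.8 CPM in tumours 1 to 4, also had this order; 1805 of its exonic bases overlap 2 genes on the opposite strand. Adamts15 differed from them and was highest in tumour 4, with 36.5, 36.5, 53.2 and 92.3 CPM in tumours 1 to 4, while its neighbour Adamts8, 20.1 kb away, stayed at 0.548 to 1.01 CPM.

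The windows around the RefSeq starts of Adamts1 and Adamts18 are shown because these 2 proteases had opposite extremes, the first high in 1 tumour and the second nearly lost in another. The TATA letters are in capitals and lie 32 bases before the start of Adamts1. Neither window holds the AP-1 letters.
Adamts1, chr16:85803064-85803363, minus strand: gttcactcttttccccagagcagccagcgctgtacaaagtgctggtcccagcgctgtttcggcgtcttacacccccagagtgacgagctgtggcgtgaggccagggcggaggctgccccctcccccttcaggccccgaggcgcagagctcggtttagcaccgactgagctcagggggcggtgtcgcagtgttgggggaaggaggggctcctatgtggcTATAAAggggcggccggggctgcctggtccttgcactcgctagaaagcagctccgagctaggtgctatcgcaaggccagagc
Adamts18, chr8:113848790-113849089, minus strand: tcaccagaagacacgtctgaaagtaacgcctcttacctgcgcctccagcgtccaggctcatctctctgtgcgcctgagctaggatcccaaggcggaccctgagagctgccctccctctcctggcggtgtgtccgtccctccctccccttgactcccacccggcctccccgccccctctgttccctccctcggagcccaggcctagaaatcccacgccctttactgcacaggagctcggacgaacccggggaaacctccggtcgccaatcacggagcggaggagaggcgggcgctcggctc

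Of the ADAMTS proteases with other or less known substrates, Adamts18 stood apart. Adamts18 (chr8:113697126-113848738, GRCm38), known in the mouse mammary gland as a product of myoepithelial cells, had 30.5, 17, 72.1 and 0.487 CPM in tumours 1 to 4, or 1297, 589, 2765 and 20 counts. Tumour 3 was the highest and tumour 4 was far below every other tumour. The 148-fold range passed (edgeR adjusted p = 4.10e-09), also without tumour 3 (edgeR adjusted p = 7.02e-06) but not without tumour 4 (edgeR adjusted p = 0.200). The summed level of 4 basal markers, Krt5, Krt14, Krt17 and Trp63, was highest where Adamts18 was lowest. It was 271 CPM in tumour 4 against 15.9, 35.9 and 47.0 CPM in tumours 1, 2 and 3. Across tumours 1, 2 and 3 alone, both this sum and Adamts18 were highest in tumour 3. The part of myoepithelial cells in the level of Adamts18 was not tested. Adamts10, a fibrillin-binding protease, had 62.3, 53.4, 42.3 and 20.2 CPM in tumours 1 to 4 and did not pass (edgeR adjusted p = 1). Adamts6, Adamts16 and Adamts17 had lower levels, from 1.21 to 20.0 CPM, and Adamts19 had 0 to 3 counts a library.

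The procollagen N-proteinases, which trim fibrillar procollagens, had tumours 1 or 2 on top. Adamts2 had 34.7, 39.4, 21.6 and 26.5 CPM in tumours 1 to 4, a 1.82-fold range (edgeR adjusted p = 1). Adamts14 had 20.8, 5.94, 16.1 and 2.19 CPM, and Adamts3, which also takes part in the processing of VEGF-C, had 20.7, 3.81, 4.46 and 2.68 CPM in tumours 1 to 4. For both, tumour 1 led and tumour 4 was last, and neither passed (edgeR adjusted p = 0.170 and 0.192). At the common rather than the trended dispersion both did, with edgeR adjusted p = 0.0425 and 0.0250. Adamts12 and Adamts7, which cleave cartilage oligomeric matrix protein, had 76.4, 68.6, 62.5 and 44.2 CPM (Adamts12) and 19.8, 32.8, 42.8 and 22.1 CPM (Adamts7) in tumours 1 to 4. Both stayed within a narrow range and did not pass (edgeR adjusted p = 1 each). Adamts13, the von Willebrand factor protease, had 2 to 10 counts a library.

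The TIMPs were abundant, and none of the 3 tested passed. Timp1, which is secreted and inducible, had 24.0, 27.1, 65.9 and 22.7 CPM in tumours 1 to 4, so only tumour 3 stood out (edgeR adjusted p = 0.825). Timp2, which takes part in the activation of pro-Mmp2 by Mmp14, had 38.6, 81.4, 35.9 and 92.0 CPM in tumours 1 to 4 (edgeR adjusted p = 0.914). Tumours 2 and 4 were high and tumours 1 and 3 low, a split that neither of the other 2 TIMPs had. Timp3, the matrix-bound inhibitor, had the narrowest range of all tested members, 1.5-fold, with 94.9, 80.9, 121 and 110 CPM in tumours 1 to 4 (edgeR adjusted p = 1). Timp4 had 1 to 5 counts a library. Timp1, Timp3 and Timp4 lie inside Syn1, Syn3 and Syn2 on the opposite strand, and 1733 exonic bases of Timp3 overlap Syn3, which had 0.782 to 4.90 CPM.

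Set against each other per kilobase, proteases and inhibitors varied unequally across the tumours. The summed level of ADAMTS genes was 57.9, 49.7, 157 and 43.3 CPM per kb in tumours 1 to 4, that of MMP genes 91.3, 79.8, 120 and 80.2 CPM per kb, and that of TIMP genes 48.6, 61.4, 98.3 and 62.7 CPM per kb. All 3 sums per kilobase were highest in tumour 3, and ADAMTS genes had the widest range. Adamts1 alone gave 73.3 of the 157 CPM per kb in tumour 3. For TIMPs the order depends on the short gene Timp1: without it the TIMP sum was 24.1 CPM per kb in tumour 3 and 37.1 CPM per kb in tumour 4, and in CPM with no length it was 223 in tumour 3 and 224 in tumour 4. In tumour 3, ADAMTS genes took 0.105% of all counts (95% exact binomial interval 0.104 to 0.106%), against 0.0348 to 0.0435% in the other tumours. These intervals cover counting error only. The ratio of summed protease to summed TIMP level was 3.07, 2.11, 2.82 and 1.97 in tumours 1 to 4, and averaged 2.49 ± 0.536 (SD, n = 4). Tumours 1 and 3 were above tumours 2 and 4 in this ratio, also when counts were summed with no length (5.51 and 7 against 3.98 and 3.16), though tumour 3 then led. Ratios of RNA do not measure active enzyme.

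**Figure D4:**
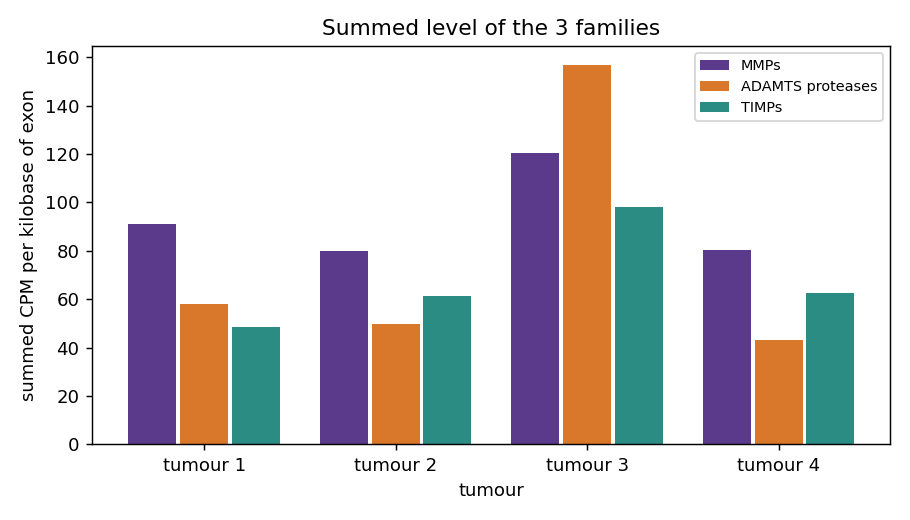
Summed CPM per kilobase of exon for MMP, ADAMTS and TIMP genes in each of the 4 tumours, 1 library per bar. The ADAMTS bar reaches 157 CPM per kb in tumour 3, and the other 3 tumours lie between 43.3 and 57.9 CPM per kb.

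Between single tumours, a larger share of members than of all genes lay over 2-fold apart in each of the 6 pairs. There was 1 library per tumour, so these pairs carry no test. Tumours 4 and 3 differed most, with 16 of 35 members (45.7%) over 2-fold apart against 21.6% of all genes, 12 of the 16 being lower in tumour 4. For tumours 3 and 1 the share was 42.9% of members against 13.9% of all genes, and for tumours 3 and 2 it was 42.9% against 17.4%. Here 12 of 15 and 14 of 15 of the members were higher in tumour 3. The direction of such differences was not counted over all genes for any pair. Of all genes tested, 29.7% were highest and 27.7% lowest in tumour 3. For tumours 4 and 1 the shares were 40% of members and 18% of all genes, for tumours 4 and 2 they were 28.6% and 11.6%, and for tumours 2 and 1 they were 20% and 10.5%.

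**Figure D5:**
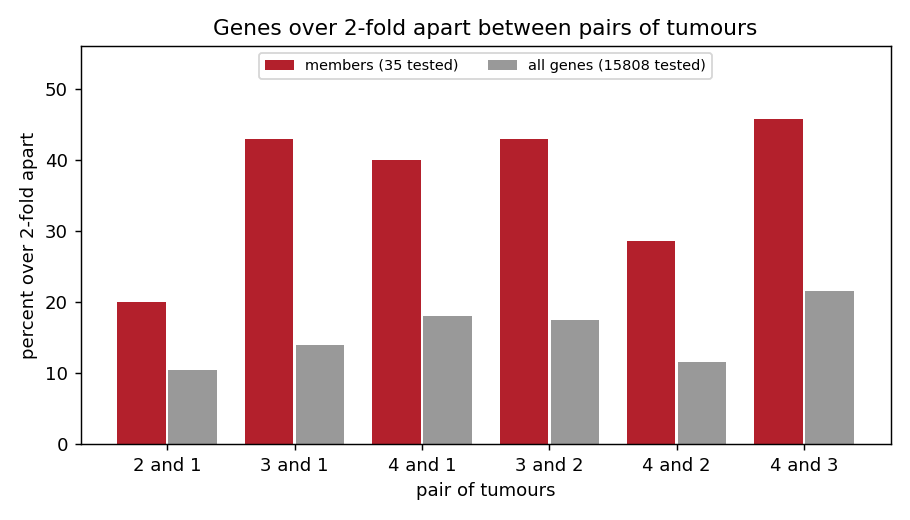
Share of the 35 tested members (red) and of all 15808 genes tested (grey) that lay over 2-fold apart between each pair of tumours. The red bar is above the grey one in all 6 pairs, from 20% against 10.5% for tumours 2 and 1 to 45.7% against 21.6% for tumours 4 and 3.

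A single tumour stood clear of the rest mainly at the upper end in tumour 3 and at the lower end in tumour 4. In tumour 3, 7 of 35 members were over 2-fold above the next tumour (3.25% of all genes), namely Adamts1, Adamts18, Adamts20, Adamts4, Adamts9, Mmp9 and Timp1. In tumour 4, 4 members were over 2-fold below the next tumour (3.04% of all genes), namely Adamts10, Adamts14, Adamts18 and Mmp16. The order of tumours 3, 1, 2 and 4 from high to low was the most frequent among members. It was shared by Adamts18, Adamts4, Mmp13, Mmp15, Mmp16 and Mmp23, which is 6 of 35 (17.1%), against 8.14% of all genes tested and 13.9% of the 574 genes past the spread test.

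Genes that act with the proteases were examined in 5 further lists. In a list of other metalloprotease inhibitors and related matrix proteins, not all of them inhibitors, 1 of 10 tested passed. It was Papln, which encodes papilin, a relative of the ADAMTS proteases, with 54.8, 66.7, 127 and 16.1 CPM in tumours 1 to 4 (edgeR adjusted p = 0.0265). The gene of that list with the highest mean was thrombospondin, Thbs1, with 632, 631, 1056 and 742 CPM in tumours 1 to 4 (edgeR adjusted p = 1). In the list of activators and the plasminogen system, 2 of 15 passed. Serpine2, which encodes the protease inhibitor nexin, had 385, 219, 482 and 46.0 CPM in tumours 1 to 4 (edgeR adjusted p = 0.00457), and Serpinb5, or maspin, had 21.9, 42.2, 14.2 and 115 CPM (edgeR adjusted p = 0.00339). Serpine2 thus followed the order of Mmp16 and Adamts18, with its lowest value in tumour 4, and Serpinb5 was highest there. Bsg, which encodes the MMP inducer basigin, was the most abundant of this list, at 803, 485, 464 and 452 CPM in tumours 1 to 4 (edgeR adjusted p = 1).

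In the list of matrix substrates, 1 of 15 passed. It was Vcan, which encodes versican, a substrate of Adamts1, Adamts4 and Adamts5, with 505, 259, 563 and 48.8 CPM in tumours 1 to 4 (edgeR adjusted p = 0.00238). The aggrecan gene Acan had 0.306, 0.0288, 0.156 and 0.0487 CPM in tumours 1 to 4 and was nearly absent. Fn1, or fibronectin, had the highest mean of the substrate genes, with 1209, 789, 2558 and 804 CPM in tumours 1 to 4 (edgeR adjusted p = 0.744). This rank rests on tumour 3, since in tumours 2 and 4 Fn1 lay below the collagen gene Col1a2, which had 917, 948, 1097 and 1190 CPM in tumours 1 to 4. None of 10 tested ADAM proteases passed, the most abundant being Adam9 with 93.3, 96.8, 293 and 140 CPM in tumours 1 to 4 (edgeR adjusted p = 0.495), and none of 5 ADAMTS-like proteins did. Adamtsl3 had the highest mean of these, with 21.3, 2.22, 4.74 and 3.43 CPM in tumours 1 to 4 (edgeR adjusted p = 0.110). This rank rests on tumour 1, since Adamtsl4, with 1.41, 8.11, 11.3 and 9.30 CPM in tumours 1 to 4, was higher in the other 3.

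The summed level of 10 fibroblast markers was 2529, 3002, 3424 and 3756 CPM in tumours 1 to 4, and 0 of the 10 passed the test. For 8 endothelial markers it was 221, 169, 198 and 165 CPM, also with 0 of 8 past the test. Tumour 3 had the highest level for 18 of the 35 tested members (51.4%), for 4 of the 8 endothelial markers (50%), for 3 of the 10 fibroblast markers (30%) and for 29.7% of all genes tested. The share was as large in several related lists, at 60% of other inhibitors and related proteins, 60% of ADAM proteases and 53.3% of substrates. It was 46.7% of activators and plasminogen genes and 20% of ADAMTS-like proteins. Among tested neutrophil and macrophage markers it was 75% and 0%. The adipocyte list was led by Fabp4, which is also made by endothelium, at 15.1, 25.8, 90.9 and 7.92 CPM in tumours 1 to 4 (edgeR adjusted p = 0.000671), while Adipoq was highest in tumour 2 at 3.72 CPM. Osteoclast markers summed to 37.9, 52.1, 38.7 and 58.4 CPM, with Calcr at 0 counts in 3 of 4 libraries.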

How the data were processed

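Raw counts per Entrez gene, as whole numbers with no normalization, were deposited by the authors for 4 tumours. Paired reads came from fragmented, random-primed poly-A RNA, per the labels' protocols. FastQC, GRCm38 and mm10 are named in the submitters' processing notes. No aligner, counter or strand setting is given in the sources used here, and overlapping genes on opposite strands cannot be told apart. The number of per-sample columns not used was 0. Symbols came from the RefSeq table of GRCm38.p6, which matched 24480 of 28440 rows, holding 97.9% of counts. Exon lengths and coordinates came from GENCODE release M21 (GRCm38).

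Counts were analysed in edgeR 4.0.16 (R 4.3.3) on all genes kept by filterByExpr (about 10 counts in all 4 libraries, 15 in total), scaled by TMM. For each gene a negative binomial model with 1 mean and the trended dispersion was fitted, and its deviance gave an upper-tail p from a chi-square distribution (3 degrees of freedom), with Benjamini-Hochberg adjustment over 15808 genes. A contrast test could not be made with 1 group. Pairs of tumours used log2 CPM with a prior count of 2. Floors are 3 counts per library and, like intervals, cover counting error only. Alternatives were RLE and unscaled libraries, 3 other count filters, Holm adjustment, the common dispersion, DESeq2 1.42.0 dispersion outliers, prior counts of 0.5 and 5, ratios without lengths, and leaving out each tumour.

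The members and lists were chosen with earlier results of these data known. Values in every tumour are given for members past the test, the 2 highest members of each class per kilobase and those flagged for 1 tumour, and, outside the members, for genes of the 5 pathway lists past the test or highest in their list. Other genes, the motifs and the order of tumours were chosen after their values were seen. Ly6g, a neutrophil marker of the lists, was not analysed here.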

Additional observations from a re-analysis of the deposited data

Results flagged for a closer look

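In a group of 4, 1 tumour was flagged where its gap to the nearest other tumour, on the log2 CPM scale, as a share of the gene's whole range, exceeded Dixon's 95% critical value. Chance flags about 1 in 20 genes, and 2 of the 35 tested members were flagged. Outside the members, 1 of 9 genes was flagged, these 9 being past the test or highest in a pathway list. Other genes named in the text were left out of this search. Timp1 was flagged for a high tumour 3, with a gap ratio of 0.835 (65.9 CPM, against 22.7 to 27.1 CPM in the others). Mmp3 was flagged for a low tumour 3, with a gap ratio of 0.83 (6.67 CPM, against 13.1 to 15 CPM). Bsg was flagged for a high tumour 1, with a gap ratio of 0.875 (803 CPM, against 452 to 485 CPM). None of these 3 genes passed the edgeR spread test. Tumour 3 is the library with skeletal muscle RNA, whose part in the values of Timp1 and Mmp3 was not tested.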

How the results depend on the processing

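The count of 5 members past the spread test was 5 under RLE scaling and library size alone, 4 under each of 3 other count filters, 7 at the common dispersion, 3 with Holm adjustment and 2 by DESeq2's rule for dispersion outliers (Adamts18 and Mmp16). Leaving out 1 tumour gave 2 to 5. The count over all genes was 574, and it was 895 with no count filter, 943 with the count minimum required in 1 library, 198 with Holm adjustment, 91 by DESeq2 and 367 to 417 with 1 tumour left out. At the common dispersion Adamts4 was not called (edgeR adjusted p = 0.173), while Adamts3, Adamts14 and Mmp9 were. Adamts20 was not called with no count filter (edgeR adjusted p = 0.133) or with the minimum in 1 library (0.112), and with Holm adjustment neither Adamts20 nor Adamts4 was. The cause of these changes was not tested. The ratio of protease to TIMP levels, 2.49, was 4.91 without gene lengths and 4.74 without the most abundant gene of each family, and 2.30 to 2.67 with 1 tumour left out, a setting added after the data were seen. The summed level of all members, 1171 CPM, ran from 955 to 1258 CPM with 1 tumour left out. Counts of members over 2-fold apart stayed within 1.5 times of the main count in all 6 pairs under the 4 settings tried, and the highest tumour of a member changed only for Mmp14, with library size alone. No paired analysis was possible because the 4 tumours form 1 group. Depth limits the scarce members, for which 1 count is worth 0.0235 to 0.0288 CPM.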
